A study of Petromyzon marinus with 21 samples.

Results

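Of the 43 target transcripts counted in sea lamprey embryos and testes, 4 carry the words apoptosis inhibitor in their deposited annotation, and all 4 are described here. comp285297 and comp285297_12 are annotated as baculoviral IAP repeat-containing protein 1, and comp266794 and comp287546 as cordon-bleu. Each transcript was read by 1 probe, at position 159 of comp285297, 938 of comp285297_12, 334 of comp266794 and 613 of comp287546, per the probe names in the file. The identifiers of the baculoviral IAP pair share the stem comp285297 and those of the cordon-bleu pair share none, and what a shared stem means is not given in the sources used here. None of the 43 target identifiers, these 4 included, is in the RefSeq gene table of the species. The lookup therefore does not show whether the genes are listed there under other names. No chromosome, start or end is given for the 4, and the names are those of the file.

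Proteins of the inhibitor of apoptosis family carry baculoviral IAP repeats, zinc-binding modules through which several members bind caspases, the proteases that carry out programmed cell death. In mammals baculoviral IAP repeat-containing protein 1 is also called NAIP, and its mouse forms are best known as sensors of bacterial flagellin and secretion proteins that assemble an inflammasome. Cordon-bleu is known in vertebrates such as mouse and zebrafish as an actin nucleator with WH2 domains, which starts new actin filaments. The words apoptosis inhibitor beside cordon-bleu are the file's.

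RNA came from whole embryos of Petromyzon marinus, a jawless vertebrate, from day 1 to day 5 after fertilization, with 3 biological samples at each of 6 stages named for the day (D1, D2, D2.5 and so on to D5), and from testes of adults. Embryos developed at 18 °C in Holfretter's solution diluted to 10%, and the labels name no treatment, strain or genotype. The 3 testes lanes were technical replicates, so they count as 1 sample here, and whole embryos mix all cell types. In such RNA, fewer cells of a type and less RNA per cell cannot be told apart. On the nCounter each chosen transcript binds a probe with its own fluorescent barcode, and the bound barcodes are counted directly, with no amplification.

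The 18 embryo lanes held 504 to 15415 counts over the 43 target probes and the 3 testes lanes 450972 to 473907. The negative controls read 1 to 20 in embryo lanes and 17 to 126 in testes lanes. A value was called above background where it passed the mean + 2 SD of the 8 negative controls of its lane, which was 7.78 to 23.2 counts in embryos and 127 to 136 in testes. The column names of 4 embryo lanes give a stage but no replicate number, and these lanes are called D4 a, D4 b, D5 a and D5 b, in no order. They carry tags that the labels do not explain, and D4 a, D5 a and D5 b share a tag. Whether D5 a and D5 b came from separate embryo samples cannot be read from the column names. The fits that use them count them as separate. The names show 3 runs of the instrument, with D1 to D3 in the first, D4 and D5 in the second and testes in the third. Among the germ cell markers, HFM1 (a helicase of meiotic crossing over) read 5815 to 6015 counts in testes against at most 77 in any embryo lane, and the synaptonemal complex protein 1 probe comp292635 read 4853 to 5231 against at most 125. Piwi-1 read 521 to 579 against at most 49, the other synaptonemal complex probes read 503 to 550 against at most 20 (comp288706) and 174 to 198 against at most 294 (comp292635_9), and Piwi-2 was above background in 0 of the 3 testes lanes.

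None of the 4 transcripts was detected in the youngest embryos. All 12 values at D1 lay below the background of their lane, with counts of 5 to 10 for comp285297_12, 2 to 4 for comp285297, 1 to 2 for comp266794 and 5 to 6 for comp287546. Of all 43 target probes, 16.3% were above background in at least 1 D1 lane. Over the 18 embryo lanes, comp285297_12 was above background in 14, comp266794 in 10 and comp285297 and comp287546 in 7 each. All 4 were above background together in 5 embryo lanes, namely D2.5 replicate 3, D3 replicate 3, D4 a, D4 b and D5 b, and none of them was in 4 lanes, the 3 of D1 and D2 replicate 3. In testes all 4 were above background in 3 of 3 lanes, and each of those lanes had 42 of the 43 target probes above background.

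To compare lanes, counts were divided by a factor from the 2 reference probes that were above background in every embryo lane, EF1A_A (elongation factor 1 alpha) and HCFC-1 (host cell factor 1), giving scaled counts with a mean factor of 1. comp285297_12, a baculoviral IAP transcript, had 12, 10.7 and 7.42 scaled counts in the D1 lanes, against a mean background of 22.9. At D2 the lanes had 47.4, 185 and 26.4, the last below its background of 34.3, and at D2.5 95.7, 48.9 and 656. From D2 onward every lane lay above the highest D1 lane, although the lanes of a stage spread over a factor of 7.01 at D2 and 13.4 at D2.5. At D3 the lanes had 206, 173 and 1777 scaled counts. At D4 replicate 1 had 52.8, lane a 975 and lane b 341. At D5 replicate 1 had 37.4, lane a 573 and lane b 515. In the second run the numbered lane was thus the lowest of its stage both times, and at D5 it lay within the range of D2.

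The stage means of comp285297_12 were 10.0 ± 2.35 scaled counts at D1, 86.4 ± 86.4 at D2 and 267 ± 338 at D2.5, and over the later stages 719 ± 917 (D3), 456 ± 472 (D4) and 375 ± 294 (D5), as SD with n = 3 each. In order of level these run D1, D2, D2.5, D5, D4, D3, and between neighbours in that order other than D1 and D2 the ranges of the lanes overlapped. Taking D1 at its mean background, the mean was at least 3.78-fold higher at D2 and 11.7-fold at D2.5, with bounds of 31.4-fold for D3, 19.9-fold for D4 and 16.4-fold for D5. Single lanes carried much of this, since the bound fell to 1.61-fold at D2 without replicate 2, 3.16-fold at D2.5 without replicate 3, 8.28-fold at D3 without replicate 3 and 8.60-fold at D4 without lane a. Leaving out D1 replicate 2, which has the highest scaled background of D1, raised the D3 bound to 47.2-fold. Without replicate numbers on 2 of the 3 lanes of D4 and of D5, those means cannot be tied to single samples.

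comp266794, a cordon-bleu transcript, had 1.20, 2.14 and 1.65 scaled counts in the D1 lanes and 8.99, 20.5 and 2.40 at D2. At D2.5 it had 6.78, 7.73 and 89.8, and at D3 33.3, 19.6 and 206. Every lane after D1 was above the highest D1 lane, but only the D3 lanes were all above their background. At D4 replicate 1 had 10.0 scaled counts, lane a 110 and lane b 51.7. At D5 replicate 1 had 5.23, lane a 67.9 and lane b 74.6. The numbered lanes of D4 and D5 were below background, as 2 of the D2 lanes and 1 of the D2.5 lanes were. Against the D1 background the mean was at least 1.52-fold higher at D2.5, with bounds of 3.77-fold for D3, 2.50-fold for D4 and 2.15-fold for D5, and no fold is given for D2, whose mean of 10.6 ± 9.15 (SD, n = 3) lies under that background. Without D2.5 replicate 3 no bound remained at D2.5 (mean 7.26), without D3 replicate 3 that of D3 fell to 1.16-fold, and without D4 a that of D4 fell to 1.35-fold.

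The other baculoviral IAP transcript, comp285297, stayed near the floor in most lanes. Its lanes ranged from 1.65 to 8.54 scaled counts at D1, 2.45 to 8.62 at D2 and 1.29 to 51.0 at D2.5. Later they ran from 8.22 to 113 (D3), 3.64 to 63.5 (D4) and 5.98 to 38.3 (D5). The ranges of all later stages overlapped that of D1. Its highest lanes, D3 replicate 3 with 113, D4 a with 63.5 and D2.5 replicate 3 with 51.0, were also the 3 highest lanes of comp285297_12. Those 3 lanes also led for comp266794 and for the mean level of all tested transcripts, so the order is not particular to this name. Against the D1 background its mean was at least 2.06-fold higher at D3, 1.35-fold at D4 and 1.16-fold at D5. These rested on single lanes, since the mean fell under the background of 22.9 without D3 replicate 3 (14.5), D4 a (14.7), or either of D5 a (20.8) and D5 b (22.1).

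The second cordon-bleu transcript, comp287546, changed least of the 4 when scaled by the reference probes. Its lanes ranged from 4.94 to 12.8 scaled counts at D1, 2.40 to 11.9 at D2 and 5.80 to 28.7 at D2.5. Later they ran from 5.69 to 81.0 (D3), 9.10 to 33.4 (D4) and 8.97 to 33.4 (D5), and every later stage overlapped D1. Its D3 mean of 32.4 ± 42.2 (SD, n = 3) was at least 1.42-fold above the D1 background, and its means at the other later stages, 5.57 at D2, 14.0 at D2.5, 20.6 at D4 and 19.5 at D5, lay under it. That bound rested on D3 replicate 3, without which the mean was 8.04.

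**Figure D1:**
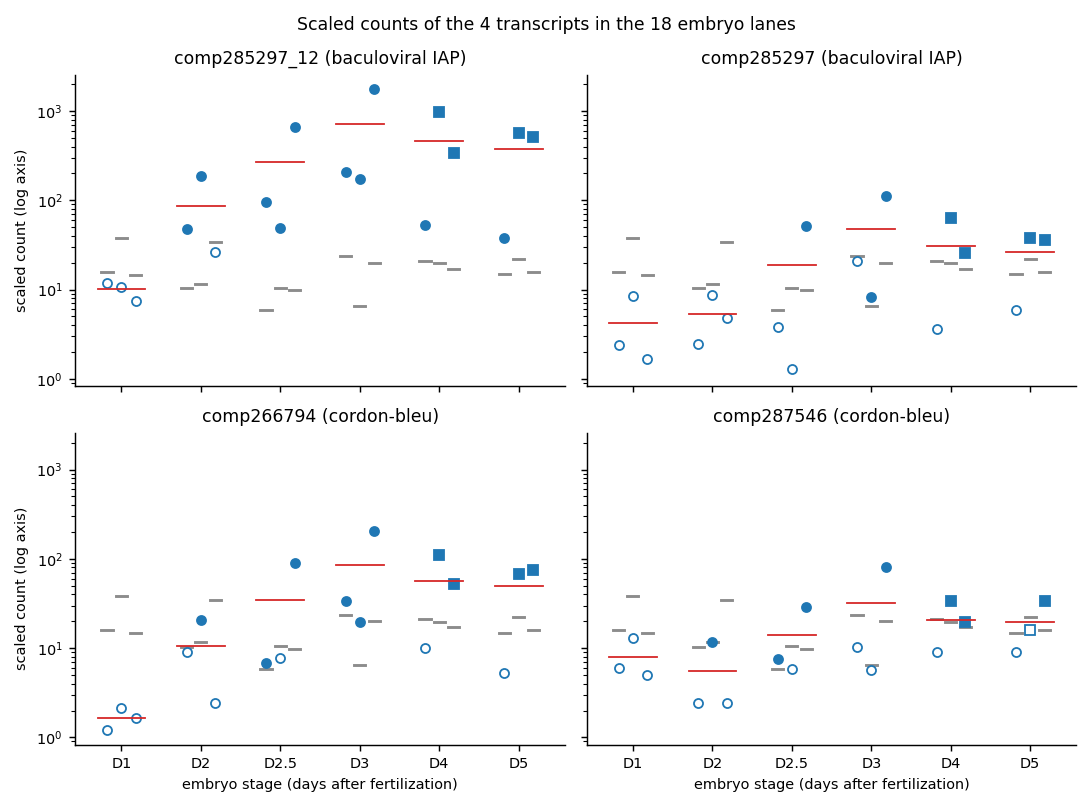
Scaled counts of the 4 transcripts in each embryo lane on a log axis, by stage. Filled symbols are above the lane's background (grey bars) and open symbols below it, circles are lanes with a replicate number, squares are the lanes D4 a, D4 b, D5 a and D5 b, and red lines are stage means. All 12 values at D1 are open, and comp285297_12 reaches 1777 in D3 replicate 3.

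Against D1, comp285297_12 and comp266794 passed the test at D2.5, D3, D4 and D5, comp285297 passed at D3 and D4, and comp287546 at no stage (edgeR's quasi-likelihood test, Benjamini-Hochberg adjustment over the 38 target transcripts tested). These comparisons share the 3 D1 lanes, so they are given side by side. For comp285297_12 the log2 fold changes were 4.72 at D2.5 (SE 1.64, edgeR adjusted p = 0.0148), 6.15 at D3 (SE 1.75, 0.00152), 5.50 at D4 (SE 1.70, 0.00416) and, last, 5.22 at D5 (SE 1.68, 0.00582). For comp266794 they were 4.32 (SE 1.52, edgeR adjusted p = 0.0148), 5.63 (SE 1.59, 0.00151), 5.04 (SE 1.56, 0.00416) and 4.82 (SE 1.55, 0.00582). Both values were highest at D3, which rested on 1 lane. Without D3 replicate 3, D3 was the lowest of these 4 stages, with 4.23 for comp285297_12 and 3.92 for comp266794. From D2.5 on, these standard errors against D1 were larger than the differences between the stages. The fitted step from D2.5 to D3 was about as large as its own standard error. It was 1.43 (SE 1.41) for comp285297_12 and 1.31 (SE 1.26) for comp266794 (edgeR adjusted p = 0.409 each).

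comp285297 had log2 fold changes of 2.23 at D2.5 (SE 1.37, edgeR adjusted p = 0.153), 3.56 at D3 (SE 1.43, 0.0186), 2.96 at D4 (SE 1.40, 0.0496) and 2.73 at D5 (SE 1.39, 0.0680). comp287546 had 0.85 at D2.5 (SE 1.18, edgeR adjusted p = 0.542), 2.06 at D3 (SE 1.21, 0.106), 1.40 at D4 (SE 1.20, 0.286) and 1.32 at D5 (SE 1.19, 0.301). At D2 none of the 4 passed. The largest log2 fold change there was that of comp285297_12, 3.10 (SE 1.53, edgeR unadjusted p = 0.0434, adjusted p = 0.206). In edgeR 1 of the 4 had an unadjusted p under 0.05, against 8 of the 38 tested transcripts, and 0 of the 38 were called. DESeq2 and limma on scaled counts also called 0 of the 4 at D2.

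Rises were the rule on this panel. Of the 38 tested transcripts 47.4% were called higher at D2.5 and 76.3% at D3, then 68.4% at D4 and 63.2% at D5, and the median log2 fold change was 2.84, 4.36, 3.78 and 3.50. Of the 4 transcripts 2, 3, 3 and 2 were called. The choice of the 38 favours rises, since it asked for at least 3 embryo lanes above background, whatever their stage. Only 16.3% of the 43 target probes passed background in any D1 lane, so most of the 38 owe their place to later lanes. With this filter dropped, edgeR calls of a rise numbered 18, 29, 22 and 25 out of 43, in the same order of stages. Every D5 lane lay above every D1 lane for 2 of the 4, against 52.6% of the 38, and the same 2, comp285297_12 and comp266794, were free of overlap at D2 (31.6% of the 38), D2.5 (42.1%), D3 (73.7%) and D4 (57.9%). At D2 this order of comp266794 shows no separation, since replicate 3 there was a count of 1 below background, against 1, 1 and 2 at D1. The shares called among the 4 lie near those of the panel.

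The direction of 2 of the 4 depended on the scaling. TMM and DESeq2's size factors are computed from the tested transcripts, so a rise common to the panel is taken out by construction, and the panel split between rises and falls went from 24 and 1 at D5 to 2 and 10 (TMM) or 7 and 10 (DESeq2's size factors). At D3 it went from 29 and 1 to 6 and 14 or 7 and 14, at D4 from 26 and 1 to 3 and 8 or 8 and 14, and at D2.5 from 18 and 0 to 7 and 9 or 7 and 11. comp285297_12 stayed higher than D1 under both, passing at D3 (log2 fold changes of 1.25 and 1.34 in that order, edgeR adjusted p = 0.0285 and 0.0169) but with TMM neither at D4 (1.14, 0.0542) nor at D5 (0.98, 0.0989). comp266794 also stayed higher, by 0.85 and 0.94 at D3, and passed at none of the 4 stages under either (edgeR adjusted p of 0.147 or more). comp285297 turned to −1.12 and −0.98 at D3 and did not pass (edgeR adjusted p = 0.0828 and 0.145), whereas comp287546 turned to −2.82 and −2.67 and passed as a fall (0.00339 and 0.00224), from a D1 level below background.

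D1 and D4 or D5 were read in different runs, which cannot be told apart from the stage, whereas D2.5 and D3 were read in the same run as D1. The calls at D2.5 ended for comp285297_12 without D1 replicate 1 (edgeR adjusted p = 0.0743), D1 replicate 3 (0.0880) or D2.5 replicate 3 (0.232), and for comp266794 without the same lanes (0.0817, 0.0880 and 0.365). That of comp285297 at D3 ended without D1 replicate 1 (edgeR adjusted p = 0.0827), D1 replicate 3 (0.0845) or D3 replicate 3 (0.257). The D3 call also ended with the sum of the target probes (edgeR adjusted p = 0.169) and limma on scaled counts (limma adjusted p = 0.0617). It held with EF1A_A alone (edgeR adjusted p = 0.0190) and HCFC-1 alone (0.0207). The call of comp285297 at D4 ended in 12 of 18 fits that left out 1 lane. Those lanes were D1 replicates 1, 2 and 3 (0.155, 0.0518 and 0.170), D2 replicates 1, 2 and 3 (0.0591, 0.0585 and 0.0643), D2.5 replicate 1 (0.0540), D3 replicate 1 (0.0526), D4 a (0.284), D4 b (0.0702), D5 a (0.0599) and D5 b (0.0627, all edgeR adjusted p). At D5 comp285297 passed without D2.5 replicate 3 (edgeR adjusted p = 0.0415), D3 replicate 3 (0.0491) or D5 replicate 1 (0.0329). It also passed there with positive controls only (edgeR adjusted p = 0.0437), EF1A_A alone (0.0434) and the negative control mean subtracted (0.0407). DESeq2 and limma on the deposited values called it too (DESeq2 adjusted p = 0.0488, limma adjusted p = 0.0430). comp285297 did not pass at D5 with, among others, HCFC-1 alone (edgeR adjusted p = 0.102), the sum of the target probes (0.291) or limma on scaled counts (limma adjusted p = 0.114). Its D4 call also ended with EF1A_A alone (edgeR adjusted p = 0.0502), HCFC-1 alone (0.0572), no background filter (0.0580) and the sum of the target probes (0.162). With limma that call ended on scaled and deposited values (limma adjusted p = 0.135 and 0.104). It held with positive controls only (edgeR adjusted p = 0.0416) and DESeq2 (DESeq2 adjusted p = 0.0338). In the 14 lanes with a replicate number, which leave 1 lane each at D4 and D5, assumed to vary like those of the other stages, none of the 4 passed at D4 or D5, with D5 log2 fold changes of 1.89 for comp285297_12 and 1.62 for comp266794 (edgeR adjusted p = 0.802 each).

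**Figure D2:**
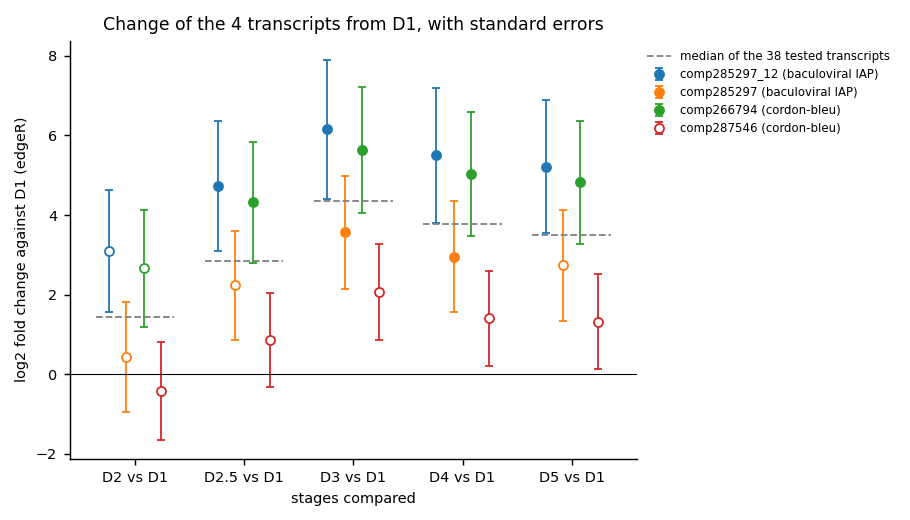
edgeR log2 fold change of each transcript against D1 (points, bars are standard errors), with filled points for an adjusted p under 0.05. Dashed lines give the median of the 38 tested transcripts, 4.36 at D3, with comp285297_12 and comp266794 above it and comp285297 and comp287546 below it at every stage.

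Within each name, with the reference probe scaling, 1 transcript moved more than the panel median and the other less. From D1 to D5 comp285297_12 ranked 9 and comp266794 12 of the 38 by log2 fold change, 1.71 and 1.32 above the median, whereas comp285297 ranked 25 and comp287546 32, at −0.77 and −2.18 relative to it. From D1 to D3 the positions were 1.79, 1.27, −0.80 and −2.30 in the same order. The 6 other scalings tried moved the fold changes themselves widely, since the panel median from D1 to D5 was 3.50 here, 1.70 with the sum of the target probes, −0.17 with DESeq2's size factors and −0.46 with TMM. A scaling changes all transcripts of a lane by the same factor, so the positions relative to the median are largely kept by construction. Under these scalings they lay between 1.42 and 1.71 for comp285297_12, 1.11 and 1.34 for comp266794, −0.77 and −0.55 for comp285297 and −2.23 and −1.74 for comp287546 (D5 vs D1). These positions carry no test. They rest on D1 counts below background, and with the mean of the negative controls subtracted they were −0.45, 0.93, −0.16 and −0.79, so that comp285297_12 then lay below the median. With limma on the deposited values comp285297 lay 0.45 above it, so that both baculoviral IAP transcripts did, and in the numbered lanes comp285297 and comp287546 were at −0.14 and −0.54.

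Over all 6 stages at once, comp266794 and comp285297_12 passed (edgeR adjusted p = 0.0181 and 0.0216) and comp285297 and comp287546 did not (0.101 and 0.387), with 52.6% of the 38 called. Leaving out any 1 of the D1 lanes ended the call of comp266794 (edgeR adjusted p = 0.108, 0.0723 and 0.116 for replicates 1, 2 and 3) and that of comp285297_12 (0.108, 0.0807 and 0.124). comp285297 passed without D2.5 replicate 3 (edgeR adjusted p = 0.00585). Both calls also ended after subtraction of each lane's negative control mean (edgeR adjusted p = 0.150 for comp266794 and 0.0704 for comp285297_12), with the reference-class probes tested as well (0.0571 and 0.0536), and with TMM (0.370 and 0.135) or DESeq2's size factors (0.712 and 0.129).

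Between successive stages after D1, none of the 4 passed in edgeR, and 0% of the 38 tested transcripts were called at any of these steps. The number with an unadjusted p under 0.05 was also 0 of the 4 at each, and limma on scaled counts called 0. All 4 had positive log2 fold changes from D2 to D2.5, between 1.28 and 1.80, and from D2.5 to D3, between 1.20 and 1.43. All 4 were negative from D3 to D4, between −0.66 and −0.60, and from D4 to D5, between −0.28 and −0.085. D3 and D4 were read in different runs, which cannot be told apart from that step. These directions rested on single lanes. Without D3 replicate 3 the change from D2.5 to D3 was negative in all 4 (−0.83 to −0.40) and that from D3 to D4 positive in all 4 (1.12 to 1.38). Without D4 a the change from D4 to D5 was positive in all 4 (0.46 to 0.93), as it was without D5 replicate 1 (0.25 to 0.32), and without D2.5 replicate 3 that from D2 to D2.5 was negative in 3 of the 4. Of 34 alternatives, 2, 4, 6 and 11 turned the direction of at least 1 transcript at the 4 steps in order.

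The same-number lanes of D2.5 and D3 deviated together from their stage means, with correlations of 0.173 to 0.794 over the 38 transcripts. In a fit of those 6 lanes with the number as a block, the log2 fold changes from D2.5 to D3 were positive for all 4. They were 1.45 (SE 0.40, edgeR adjusted p = 0.000592) for comp285297_12, 1.59 (SE 0.30, 6.38e-06) for comp285297, 1.46 (SE 0.42, 0.00117) for comp266794 and 0.95 (SE 0.34, 0.00786) for comp287546. In that fit 92.1% of the 38 were called higher. The block was chosen after seeing these correlations and not from the labels, so its p-values are no independent test of a rise. Without the block none of the 4 passed at this step (edgeR adjusted p = 0.409 each). The blocked fit called 4 of the 4 with EF1A_A alone, 3 with HCFC-1 alone, and 0 with positive controls only, the sum of the target probes, TMM or DESeq2's size factors. The panel moved alike, with 35, 33 and 1 of the 38 called higher under the first 3 of these scalings. Under the sum, TMM and the size factors 0 were called higher.

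The share of a lane's target counts that falls to a transcript needs no reference probe, although it moves with the rest of the panel. comp285297_12 held 0.378% to 0.992% of the target counts in the D1 lanes and 1.58% to 10.2% in the 15 later ones, with a median of 5.86% and no overlap, which was so for 13.2% of the 38 transcripts. Setting D1 against all later lanes was chosen after the values were seen, and no test was run on it. The lowest later shares were those of D5 replicate 1 (1.58%, 95% exact binomial interval 1.17% to 2.07%) and D2 replicate 3 (1.87%, 0.936% to 3.32%), the latter a count of 11 below its background. In D1 replicate 2, the lane with the fewest counts, the background alone equals 3.55% of the target counts, so a low share could not be shown there, against 0.785% and 0.749% in D1 replicates 1 and 3. Intervals cover counting error only.

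The shares of the other transcripts overlapped between D1 and later lanes. comp266794 held 0.0597% to 0.198% at D1 and 0.170% to 1.28% later, comp285297 0.0839% to 0.794% and 0.0889% to 0.713%, and comp287546 0.252% to 1.19% and 0.131% to 0.565%. For comp287546 the highest share of any embryo lane was thus that of D1 replicate 2, from a count of 6 below background.

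**Figure D3:**
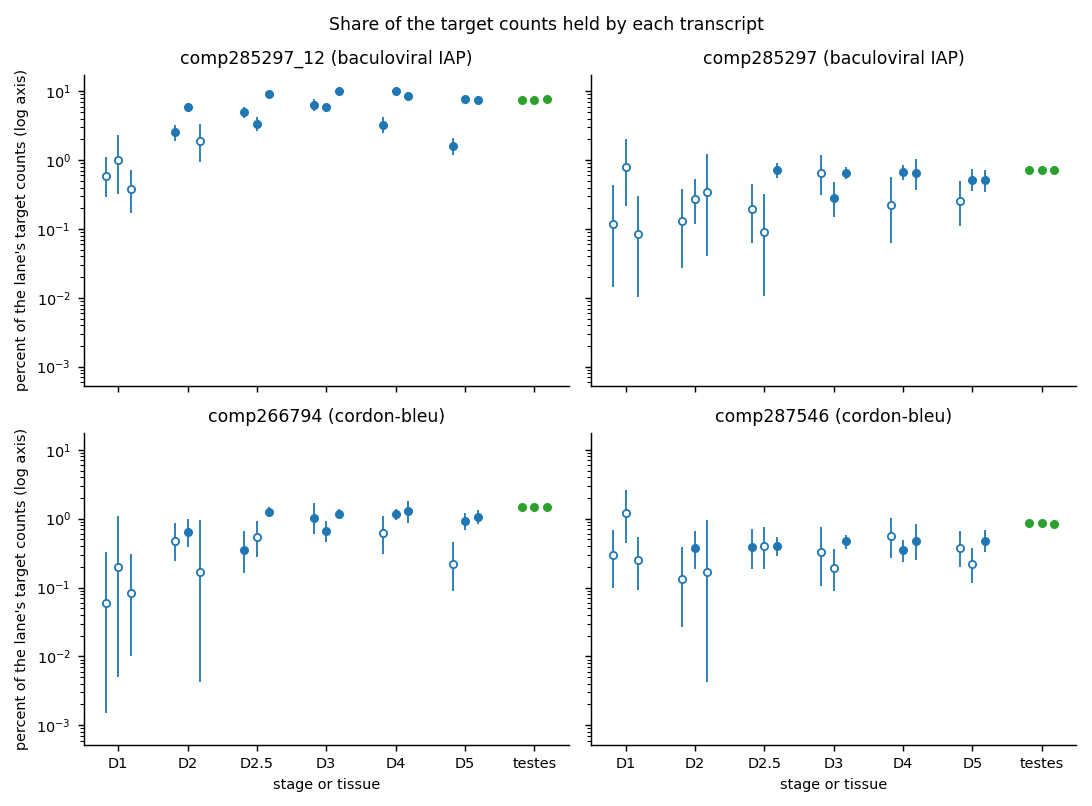
Percent of each lane's target counts held by each transcript, on a log axis, with 95% exact binomial intervals and open points below background. comp285297_12 lies at 0.378% to 0.992% in the D1 lanes, 1.58% to 10.2% later and 7.57% to 7.66% in testes.

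In testes all 4 transcripts were far above every embryo stage in counts. The 3 technical lanes read 35856, 34995 and 34535 counts of comp285297_12, 7092, 6878 and 6695 of comp266794, 4055, 3975 and 3826 of comp287546, and 3367, 3300 and 3210 of comp285297. The highest embryo counts, all in D3 replicate 3, were 1579, 183, 72 and 100. Scaled by HCFC-1, the only reference probe above background in all 21 lanes, testes were 12.5-fold above the D3 mean for comp285297_12, 18.2-fold for comp285297, 20.7-fold for comp266794 and 31.3-fold for comp287546, D3 being the highest stage for each. Over the highest embryo lane, D3 replicate 3, they were 4.79-fold, 7.09-fold, 8.10-fold and 11.8-fold higher in the same order. HCFC-1 itself read only 167 to 177 counts in testes, against a background of 127 to 136, and 33 to 141 in embryos. These folds thus rest on a reference near the floor. With 1 testes sample there is no test, and testes were read in a run of their own.

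Being at least 4-fold above the highest stage held for 93% of the 43 target probes, whose median was 16.4-fold, so the 4 transcripts share it with the panel. As a share of the target counts, comp285297_12 held 7.57%, 7.57% and 7.66% in the testes lanes, inside the range of its D3 lanes (5.86% to 10.2%). comp266794 held 1.48% to 1.50% and comp287546 0.848% to 0.860% in testes, above all embryo lanes for comp266794 (at most 1.28%) and above all lanes after D1 for comp287546. comp285297 held 0.710% to 0.714%, beside 0.713% in D2.5 replicate 3. EF1A_A read 12 to 22 counts in testes, below the background of 127 to 136, against 124 to 863 in embryos. Scaling by it gave 1778-fold for comp285297_12 and 4432-fold for comp287546, which are no usable sizes, since it was not detected in testes. With positive controls only, the folds of these 2 were 33.3 and 84.9, so the size of the difference rests on the reference.

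The 2 transcripts of each name can be compared within a lane without scaling. comp285297_12 had more counts than comp285297 in 18 of 18 embryo lanes and in all testes lanes. In the 7 embryo lanes with both above background the ratio was 12.9 in D2.5 replicate 3 (95% interval 10.1 to 16.6), 21.1 in D3 replicate 2 (12.1 to 40.1), 15.8 in D3 replicate 3 (12.9 to 19.5), 15.4 in D4 a (11.8 to 20.3), 13.2 in D4 b (7.93 to 23.5), 15.0 in D5 a (10.4 to 22.3) and 14.5 in D5 b (10.1 to 21.4). These lanes are the ones in which comp285297 passed its background, which depends on the ratio itself, and their counts of comp285297_12 ran from 211 to 1579. In the 7 lanes with comp285297_12 alone above background the ratio ran wider, from 6.25 in D5 replicate 1 to 38 in D2.5 replicate 2, on counts of 2 to 10 for comp285297. Over the 3 stages with at least 2 lanes that had both above background, the exact permutation test over 90 arrangements of 6 lanes gave p = 0.267 (adjusted over the 2 pairs 0.533). No p under 0.0667 was possible, so the test could not have shown a difference between stages.

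In testes the ratio was 10.6, 10.6 and 10.8, below all 7 of those embryo lanes. The intervals of 3 of them, D3 replicates 2 and 3 and D4 a, lay above the highest testes ratio. With the mean of the negative controls subtracted, the embryo ratios were 14.0 to 32.2 and those of testes 10.8 to 10.96. Testes counts are 1 sample of another run, so the tissue and the run cannot be told apart in this difference.

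For cordon-bleu, comp266794 had more counts than comp287546 in 12 of 18 embryo lanes, among them 0 of 3 at D1, where both were below background. In the 7 embryo lanes with both above background the ratio was 1.73 in D2 replicate 2 (95% interval 0.781 to 4.02), 0.900 in D2.5 replicate 1 (0.324 to 2.46), 3.13 in D2.5 replicate 3 (2.17 to 4.58), 2.54 in D3 replicate 3 (1.92 to 3.39), 3.29 in D4 a (2.18 to 5.09), 2.67 in D4 b (1.34 to 5.69) and 2.23 in D5 b (1.43 to 3.56). In testes it was 1.75, 1.73 and 1.75. The intervals of 3 embryo lanes, D2.5 replicate 3, D3 replicate 3 and D4 a, lay above the highest testes ratio, and 2 of the 7 ratios lay below it. These 7 lanes are the ones in which comp287546 passed its background, which depends on the ratio itself. With comp266794 alone above background the ratio was 3.20 in D3 replicate 1, 3.44 in D3 replicate 2 and 4.23 in D5 a. Of their intervals only that of D5 a, 2.28 to 8.44, lay above the highest testes ratio. With the negative control mean subtracted, the ratios were 0.857 to 3.93 in the 7 lanes and 1.74 to 1.76 in testes. Testes are 1 sample of another run, so tissue and run cannot be told apart here. Only D2.5 and D4 had at least 2 lanes with both above background. The exact permutation test over 6 arrangements of 4 lanes gave p = 0.667 (adjusted over the 2 pairs 0.667), where no p under 0.333 was possible.

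Over all 18 embryo lanes, whether above background or not, both ratios differed between stages (permutation test with 100000 resamples, p = 0.0124 for the baculoviral IAP pair and 0.0181 for the cordon-bleu pair). That comparison includes the D1 lanes, where the ratios are those of background counts, 10 to 2, 5 to 4 and 9 to 2 for comp285297_12 to comp285297 and 1 to 5, 1 to 6 and 2 to 6 for comp266794 to comp287546. A change in either ratio from D1 was therefore not measurable at this depth.

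**Figure D4:**
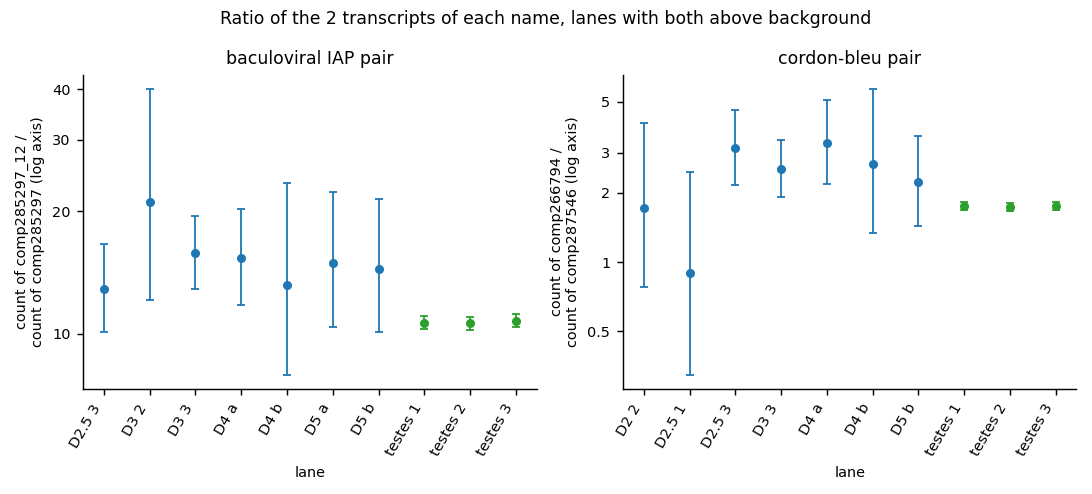
Ratio of the counts of the 2 transcripts of each name in every lane with both above background, on a log axis, with 95% exact binomial intervals for counting error. Embryo lanes are blue and testes lanes green, and the testes lanes lie at 10.6 to 10.8 for the baculoviral IAP pair and 1.73 to 1.75 for the cordon-bleu pair.

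Across the 18 embryo lanes, the transcript most like a member was not the other transcript of its name. By Pearson's r of log2(scaled count + 1), comp285297_12 was closest to the unannotated comp254454 (0.992), comp293992 (0.987) and to comp266794 (0.984), while comp285297 ranked 26 of 37 (0.885). comp266794 was closest to the unannotated comp231524 (0.986), to neurofascin (comp293325, a cell adhesion molecule of axons, 0.984) and to comp285297_12, while its namesake comp287546 ranked 30 of 37 (0.821). comp285297 was closest to comp286889 (0.963), HFM1 (0.960) and comp292169 (0.960), with comp285297_12 at rank 21, and comp287546 to comp30676 (0.905), comp290885 (0.902) and comp292169 (0.902), with comp266794 at rank 17. The lanes share their scaling and the level of the whole panel, and each member also followed the mean of the other 37 transcripts, with r of 0.985 for comp266794, 0.982 for comp285297_12, 0.939 for comp285297 and 0.850 for comp287546.

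With each lane's mean over the 38 transcripts subtracted, the nearest were comp293992 (0.933), comp254454 (0.896) and comp292315 (0.891) for comp285297_12, and comp293924 (0.849), hydroxylysine kinase (comp293109, of amino acid breakdown, 0.838) and comp285297_12 (0.797) for comp266794. For comp285297 they were comp30676 (0.625), comp286889 (0.592) and comp292169 (0.581), and for comp287546 they were protein phosphatase 1D (comp267762, 0.682), aspartate aminotransferase (comp293586, which moves amino groups between amino acids, 0.648) and comp289786 (0.645). The transcripts of a name then ran against each other, with r of −0.37 for the baculoviral IAP pair and −0.65 for the cordon-bleu pair. This was not particular to a shared name. Across names, r was −0.81 for comp285297_12 with comp287546 and −0.32 for comp266794 with comp285297, but 0.35 for comp285297 with comp287546. Subtracting a common mean lowers such values by construction, and transcripts near the floor in many lanes fall together on this scale. The correlations are descriptions over 18 lanes that share depth and scaling.

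Beside these 4, the panel holds no further transcript whose annotation names apoptosis, caspases, the Bcl family or p53. None beside the 2 of cordon-bleu names actin or its nucleators. Only 19 of the 43 target probes are annotated, so for the others this cannot be judged.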

How the data were processed

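Barcode counts per probe and lane were used as deposited by the authors, whole numbers per the file headers, with 43 target, 6 reference, 6 positive and 8 negative control probes. The authors also deposited normalized signal values, whose recipe is not given in the sources used here and which served only as an alternative. Of the target transcripts, 38 were above background in at least 3 embryo lanes and were tested. Scale factors were the geometric mean of EF1A_A and HCFC-1 for embryos and HCFC-1 for all 21 lanes. Positive controls cancel in this step. edgeR 4.0.16 (R 4.3.3, robust quasi-likelihood, stage as the factor) was run on the embryo lanes at an adjusted p threshold of 0.05, with two-sided tests. The standard error is the log2 fold change over the square root of F. limma 3.58.1 used log2(scaled count + 1), and DESeq2 1.42.0 was an alternative. Simulated counts with known changes in a few transcripts at a time were run through the edgeR fit. They differ from these data, where most of the panel rose together, so they do not check the calls made here.

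Ratios within a lane used a pseudocount of 1 for tests and none for printed values. Their exact test listed all arrangements where these were few enough. Intervals are exact binomial (Clopper-Pearson) at 95%. To check the replicate numbers as pairs, the deviations from the stage mean were correlated between lanes of the same number, and of 6 stage pairs of the first run 1 met the rule of every correlation over 0.1 (D2.5 with D3), from the values and not the labels. The members, lists and tests were chosen with earlier results of these data known. Besides the 4 transcripts, those named are the 3 nearest to each by correlation, the germ cell markers and the reference probes.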

Additional observations from a re-analysis of the deposited data

How the results depend on the processing

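Depth limits every change from D1, where all 4 transcripts were below background in every lane. A fall of comp287546 from D1 could therefore not be shown, and folds over the D1 background are lower bounds, whose values without 1 lane were computed after seeing the data. Scaling by TMM or by DESeq2's size factors takes out a panel-wide change by construction, since both derive from the tested transcripts. The sum of the target probes also derives from the panel but left a rise in it. Under that sum the panel's median log2 fold changes were 1.65, 2.12, 2.09 and 1.70 over D2.5 to D5. There comp285297_12 and comp266794 passed at each of these stages (edgeR adjusted p = 0.00122 and 0.00188 at D5). comp285297 and comp287546 passed at none of them. For comp285297_12, 180 of 203 values against D1 or over all stages kept direction and side of the threshold, and none of these changed direction. For comp266794 it was 174, also with no change of direction, for comp285297 153 with 13 changes of direction, and for comp287546 178 with 18. Many of these values come from fits without a lane of a stage outside the comparison, which could hardly move. A transcript that did not pass also counts as kept where it still did not, so the tallies do not measure robustness.

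The changes of direction against D1 (log2 fold change) were as follows. With TMM comp285297 was at −0.91, −1.16, −1.12, −1.12 and −1.01 over D2 to D5, and comp287546 at −1.87, −2.82, −2.25 and −2.21 over D2.5 to D5. With DESeq2's size factors comp285297 was at −1.30, −1.16, −0.98, −0.97 and −0.72 over D2 to D5, and comp287546 at −1.95, −2.67, −2.22 and −1.92 from D2.5 on. These falls of comp287546 passed (edgeR adjusted p = 0.0317, 0.00339, 0.0155 and 0.0148 with TMM, 0.0181, 0.00224, 0.0100 and 0.0235 with the size factors). With the sum of the target probes comp287546 was at −0.21, −0.45, −0.026 and −0.37 from D2.5 on. At D2 comp287546 was at 0.044 with positive controls only, 4.46 with the negative control mean subtracted, 0.25 with limma on the deposited values and 0.37 without the 3 lanes poorest in EF1A_A counts, a choice made after seeing the data. With numbered lanes only comp285297 was at −0.085 at D4. Leaving out 1 lane gave −0.17 to 1.35 for comp285297 and −1.61 to 0.066 for comp287546 at D2, and −0.59 to 3.15 and −0.20 to 1.34 at D2.5.

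The number of the 4 called at D2 went from 0 to 2 when scaled to the sum over target probes, and to 1 with only the stages compared, with TMM, and (as a fall of comp287546) with DESeq2's size factors. At D2.5 it went from 2 to 1 with limma on scaled or deposited values, to 0 without the 3 lanes poorest in EF1A_A, and to between 0 and 2 without 1 lane. At D4 it went from 3 to 1 with TMM (the fall of comp287546) and 0 with numbered lanes only, where D4 and D5 have 1 lane each, assumed to vary like the others, and lay at 2 to 3 without 1 lane. At D5 it went from 2 to 1 with TMM (again that fall), 4 with the negative control mean subtracted and 0 with numbered lanes only, and lay at 2 to 3 without 1 lane. At D3 it lay between 2 and 4 under the 34 alternatives, but with TMM or DESeq2's size factors it was 1 rise (comp285297_12) and 1 fall (comp287546). The same rise and fall made up the number called at D2.5 with either scaling and at D4 and D5 with the size factors. Over all stages it went from 2 to 1 with DESeq2's size factors, where only comp287546 passed (edgeR adjusted p = 0.0394). That number was 0 with TMM, the negative control mean subtracted, reference-class probes tested as well or the 3 lanes poorest in EF1A_A left out. Without 1 lane it was 0 to 3. From D2 to D2.5, D3 to D4 and D4 to D5 it was 0 under all 34 alternatives. Over the panel, D5 against D1 gave 24 rises and 1 fall, against 7 and 10 with DESeq2's size factors, 2 and 10 with TMM, and 0 of either with numbered lanes only. The cause of changes outside the scalings set by the panel was not tested, and settings with fewer lanes have fewer samples by construction.

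With a replicate block on the numbered lanes, the number called was 0 at D2.5, D4 and D5 and over all stages, and D5 against D1 gave 2.41 for comp285297_12 and 2.63 for comp266794 (edgeR adjusted p = 0.580 and 0.558). From D2.5 to D3, a block on those 6 lanes alone, chosen after seeing the data, moved it from 0 to 4, to 4 with EF1A_A alone and to 3 with HCFC-1 alone.

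The permutation test of the probe ratios by stage gave p = 0.0124 (baculoviral IAP) and 0.0181 (cordon-bleu) over all 18 lanes. Without 1 lane the exact p was 0.267 to 1 and 0.667, and the cordon-bleu ratio could not be tested in 4 of those cases or with the mean + 3 SD. All 4 transcripts were at least 4-fold higher in testes under 4 alternatives and 0 of them with the sum of the target probes. With that sum the folds were 1.01 for comp285297_12 and 1.36 for comp285297, both over D3, and 1.46 for comp266794 over D4. For comp287546 the fold was 1.47 over D1, where its counts were below background. Those 4 alternatives include scaling by EF1A_A, which was below background in testes, and negative control subtraction, which left the HCFC-1 factor unsubtracted.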
